A study of Homo sapiens with 60 samples.

Results

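The genes of the early steps of sphingolipid and ceramide synthesis were followed in HepG2, an established line from a human liver carcinoma that still makes many hepatocyte proteins. They are 9 genes (SPTLC1, SPTLC2, SPTLC3, SPTSSA, KDSR, CERS2, CERS4, CERS6 and DEGS1) of the 60675 in the count table, found by matching Ensembl identifiers to symbols. All 9 passed the filter on low counts that left 16924 genes. The set was chosen by its levels over vehicle and the 8 extracts at 3 doses, with results of these same libraries known, so their levels and changes are given as a description. No p-value of a member is printed, and where a member is said to be called (past the threshold used for all genes) this describes its place in the fit and is no independent test. Total RNA was sequenced after 24 h in 60 libraries, all of the same line and time point. Hot-water extracts were made of the decoctions Yijin-tang (yijin) and Soshiho-tang (soshiho). Ethanol extracts were made of Liriopis seu Ophiopogonis Tuber (liriope), Schisandrae Fructus (schisandra), Longan Arillus (longan), Zizyphi Semen (zizyphus), Polygalae Radix (polygala) and Aucklandiae Radix (aucklandia). The first 6 extracts were given at 20 µg/mL (low), 100 µg/mL (medium) and 500 µg/mL (high). Polygala was given at 10, 50 and 250 µg/mL and aucklandia at 11.2, 56 and 280 µg/mL, where the series text sets the top dose by cell viability. Each dose has 3 libraries, except 2 for soshiho and 1 for polygala and for aucklandia, and the vehicle dimethyl sulfoxide (DMSO) has 3. The 6 extracts with more than 1 library per dose are called the replicated extracts, and with the vehicle they make up 54 libraries.

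Sphingolipids are membrane lipids built on a long-chain amino alcohol. Synthesis begins in the endoplasmic reticulum, where serine palmitoyltransferase joins serine and a fatty acyl-CoA. The enzyme pairs SPTLC1 with either SPTLC2 or SPTLC3, and a small subunit, SPTSSA or SPTSSB, raises its activity. KDSR then reduces the ketone, a ceramide synthase (the CERS genes) adds an acyl chain of a length that it prefers, and DEGS1 inserts the double bond that turns dihydroceramide into ceramide. ORMDL proteins restrain the first step. Ceramide goes on to sphingomyelin, made by SGMS1 and SGMS2, or to glucosylceramide, made by UGCG, and in liver it is also known for its place in lipotoxicity and insulin resistance.

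Sequence before the start of transcription is shown for 4 members, because the 3 serine palmitoyltransferase genes among them and DEGS1 did not move alike at the high doses of polygala and aucklandia. RefSeq start sites (GRCh38.p14) were matched for 6 of the 9 members, and SPTLC3, CERS2 and CERS4 had no entry. From the 250 bases before each start, only the stretch with no annotated exon of any GENCODE 29 transcript is printed, 5′ to 3′ on the gene's strand, which left none of the windows of KDSR and CERS6. For DEGS1 the first of 2 listed starts is used. Capitals mark the letters CCAAT (NF-Y box) or their reverse complement in SPTLC1, SPTLC2 and SPTSSA, and the letters GGGCGG (GC box) or their reverse complement in DEGS1.
SPTLC1 chr9:92115414-92115663 (minus strand): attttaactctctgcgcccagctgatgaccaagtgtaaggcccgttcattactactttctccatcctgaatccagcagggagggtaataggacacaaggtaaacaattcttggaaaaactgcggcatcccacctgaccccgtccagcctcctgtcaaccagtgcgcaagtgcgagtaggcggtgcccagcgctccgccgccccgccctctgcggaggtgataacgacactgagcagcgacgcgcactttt
SPTLC2 chr14:77616774-77616887 (minus strand): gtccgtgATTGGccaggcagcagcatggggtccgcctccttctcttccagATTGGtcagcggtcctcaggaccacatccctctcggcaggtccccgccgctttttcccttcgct
SPTSSA chr14:34462357-34462490 (minus strand): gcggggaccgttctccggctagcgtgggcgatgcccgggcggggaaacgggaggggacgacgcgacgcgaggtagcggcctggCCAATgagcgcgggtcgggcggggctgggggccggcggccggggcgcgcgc
DEGS1 chr1:224182990-224183170 (plus strand): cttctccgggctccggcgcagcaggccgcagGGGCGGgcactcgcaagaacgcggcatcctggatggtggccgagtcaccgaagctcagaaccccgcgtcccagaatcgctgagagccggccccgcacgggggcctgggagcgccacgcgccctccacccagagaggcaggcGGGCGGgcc
The NF-Y box matched 0 times in the 250 bases of SPTLC1, 2 times in the 114 bases of SPTLC2 and 1 time in the 134 bases of SPTSSA. Over all 35116 RefSeq windows, 32.0, 14.2 and 16.7% held it within the same stretches. The GC box matched 2 times in the 181 bases of DEGS1, and 31.5% of all windows held it there. It matched 0 times in the 245 bases before the other DEGS1 start, where 42.1% of windows held it. It also matched, unmarked here, 2 times each in the stretches of SPTLC1 and SPTSSA, where 42.6% and 23.0% of windows held it, and 0 times in that of SPTLC2 (19.6%). These are 2 of 8 motifs searched. Of the rest, the antioxidant response element (TGACNNNGC) matched 1 time in the 181 bases of DEGS1 (7.27% of windows). The dioxin response element core (GCGTG) matched 1 time there (23.8%), 2 times before the other DEGS1 start (31.8%) and 1 time in SPTSSA (17.6%). No other motif matched. All these matches describe letters and are not evidence of a bound factor.

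A library held 20.7 to 38.0 M expected counts, of which 9.5 to 18.4% were mitochondrial. The vehicle libraries were at the upper end, at 18.4, 15.2 and 15.19%. Treated libraries reached 13.85% at most, except liriope high-dose replicate 2 at 15.86%. What this does to comparisons against vehicle was not tested. Levels are CPM (counts scaled to library size after normalization over all 60 libraries), so a change is one against the rest of the transcriptome. The libraries expressed hepatocyte markers as the line should: 8 of 8 were above 1 CPM in vehicle and their sum was 38186 to 51475 CPM in the 54 libraries. Markers of fibroblasts summed to 6.57 to 18.3 CPM and those of endothelial cells to 4.48 to 7.06 CPM. Of the blood markers, PTPRC, CD3E and HBB stayed under 0.1 CPM in all 54 libraries, while LYZ lay at 972 to 1707 CPM. The vehicle libraries carry a sample code that no treated library shares, and even the low doses differed from vehicle in many genes (15.2% of all genes with yijin, 11.9% with soshiho, 16.6% with liriope, 21.5% with schisandra, 20.1% with longan and 16.5% with zizyphus), so the high dose is compared first with the low dose of the same extract. Vehicle and sample code cannot be told apart. The labels do not say that replicates were separate cultures, so a p-value reflects no more than how these libraries scatter, which may be technical.

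In vehicle cells the levels per kb of merged exons ran over more than an order of magnitude. CERS2, the ceramide synthase that makes very-long-chain ceramides in liver, was highest at 54.4 ± 0.407 CPM per kb (SD, n = 3). SPTSSA followed at 30.6 ± 4.49, CERS4 at 14.0 ± 1.10, CERS6 at 12.9 ± 0.722 and DEGS1 at 9.62 ± 0.861 CPM per kb. SPTLC1 lay at 6.99 ± 0.459, SPTLC3 at 6.87 ± 0.332, SPTLC2 at 4.22 ± 0.170 and KDSR at 1.85 ± 0.0419 CPM per kb. Per kb, CERS4 and CERS6 did not differ beyond their spread, and neither did SPTLC1 and SPTLC3. Before division by length both pairs did, with CERS6 at 93.3 ± 5.23 CPM and CERS4 at 56.9 ± 4.47 CPM. SPTLC3 was at 58.5 ± 2.83 CPM and SPTLC1 at 45.3 ± 2.98 CPM. The length is that of all annotated exons merged, not of the transcripts expressed, and the SD leaves out its error. Levels and shares per length depend on it. SPTSSA lies inside the longer gene EGLN3 on the same strand (chromosome 14), so reads could be split between them. EGLN3 was at 0.691 to 1.33 CPM in every group.

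**Figure D1:**
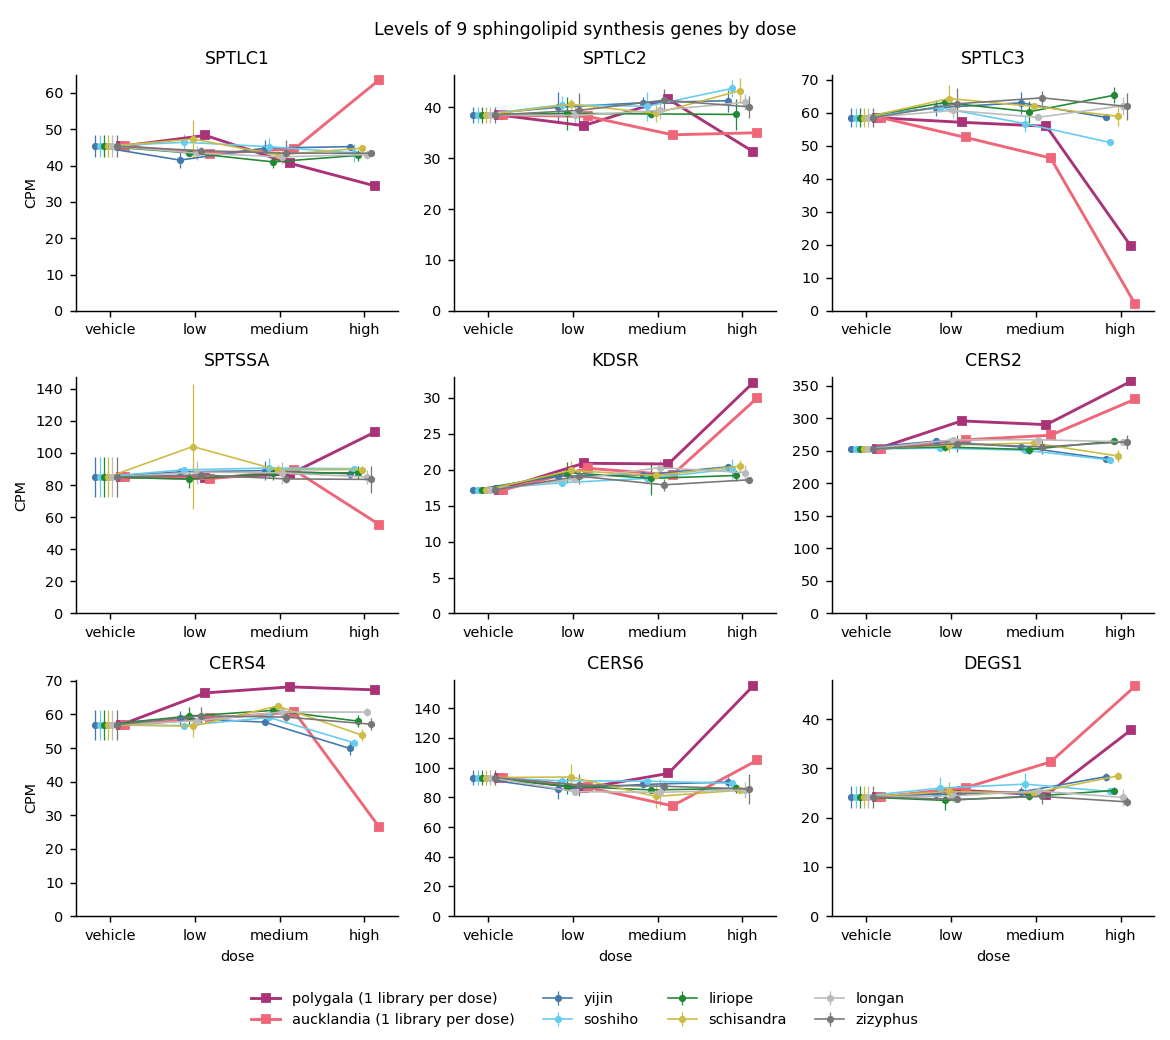
Level in CPM of each of the 9 genes (axes start at 0) in vehicle and at the low, medium and high dose of 8 extracts. Circles are means of 2 or 3 libraries with the SD as bars, squares are the 1 library per dose of polygala and aucklandia, and the 3 vehicle libraries are drawn again for each extract. The squares leave the band of the other extracts mainly at the high dose, where SPTLC3 lies at 19.5 CPM with polygala and 1.94 CPM with aucklandia.

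SPTLC3 encodes the alternative large subunit of serine palmitoyltransferase, which accepts shorter acyl-CoAs than SPTLC2 does (GRCh38, chr20:13008979-13169103, plus strand). Over all 60 libraries its highest level was the largest multiple of its lowest among the 9, through the single high-dose libraries of aucklandia and polygala. In the 54 libraries of replicated groups its lowest, median and highest levels were 50.2, 61.1 and 68.6 CPM. With aucklandia it lay at 52.5 CPM at the low, 46.3 CPM at the medium and 1.94 CPM at the high dose. The high-dose value rests on 42 counts (95% Poisson interval 30.3 to 56.8), against 1438 counts at the low dose. That is a ratio of 0.0369 (95% interval 0.0265 to 0.0502), or a level 27.1-fold lower, and the medium dose was also under the lowest of the 54 libraries. With polygala it lay at 57.1 CPM at the low, 55.9 CPM at the medium and 19.5 CPM at the high dose. The ratio of high to low dose was 0.341 (95% interval 0.306 to 0.379). With 1 library per dose neither difference has a replicate check, and the intervals cover counting error only.

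**Figure D2:**
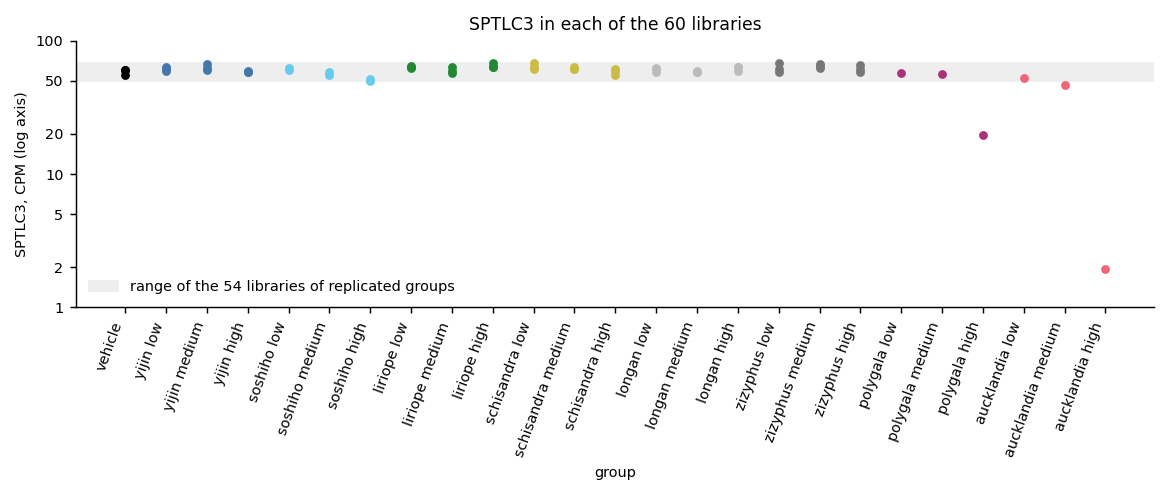
SPTLC3 level in CPM (log axis) in each of the 60 libraries, 1 point per library, by group, with doses low to high within an extract. The grey band spans the 54 libraries of replicated groups (50.2 to 68.6 CPM), and only the medium and high doses of aucklandia and the high dose of polygala lie under it.

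Between high and low dose of the replicated extracts, SPTLC3 was called (adjusted p under 0.05 over all genes, edgeR's quasi-likelihood test) with soshiho and with no other extract. It was at 50.2 and 51.8 CPM at the high dose, against 60.5 and 62.5 CPM at the low dose. The groups do not overlap, the medium dose lay between them at 58.6 and 54.9 CPM, and the log2 change was -0.27 ± 0.065 (SE). The call was lost without high-dose replicate 2 or without low-dose replicate 3, with a log2 change of -0.25 in either case. With liriope the high dose was at 64.0, 63.7 and 68.1 CPM, against 63.1, 64.2 and 62.0 CPM at the low dose, and the groups overlap.

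SPTLC2 is the other large subunit. Its lowest, median and highest levels in the 54 libraries were 35.3, 40.2 and 44.9 CPM. At the high dose it was at 31.3 CPM with polygala, against 36.4 CPM at the low dose, and at 35.0 CPM with aucklandia, against 38.2 CPM at the low dose. Both high-dose values lie under the lowest of the 54 libraries, that of aucklandia only just. Per length, SPTLC3 made up 54.6 to 65.7% of SPTLC2 and SPTLC3 together in those libraries, with the lowest group mean at the high dose of soshiho (55.6 ± 1.43%, n = 2). Its share was 40.1% at the high dose of polygala, against 62.7% at the low dose, and 5.62% at the high dose of aucklandia, against 59.6% at the low dose.

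SPTLC1, the subunit that every form of the enzyme needs, went opposite ways in the extracts with 1 library per dose. With polygala it was at 34.4 CPM at the high dose, against 48.3 CPM at the low dose (ratio 0.712, 95% interval 0.650 to 0.780). With aucklandia it was at 63.6 CPM at the high dose, against 43.3 CPM at the low dose (ratio 1.47, 1.36 to 1.59). Both high-dose values lie outside the 39.2 to 53.5 CPM of the 54 libraries. The small activating subunit SPTSSA was opposite to SPTLC1, at 113 CPM with the high dose of polygala, against 84.5 CPM at the low dose, and at 55.4 CPM with the high dose of aucklandia, against 83.9 CPM at the low dose. With schisandra SPTSSA read 149 CPM in low-dose replicate 1, against 80.8 and 81.8 CPM in the other low-dose libraries. The high dose was at 91.8, 89.4 and 87.7 CPM and the gene was not called (log2 -0.21 ± 0.11), and without that library the change turned positive (0.14). It was called without low-dose replicate 2 (-0.36) or 3 (-0.35) and without a filter on low counts (-0.23). The next highest of the 54 libraries was a vehicle library at 98.9 CPM, so the polygala value is inside the range of the 54 only through that schisandra library.

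**Figure D3:**
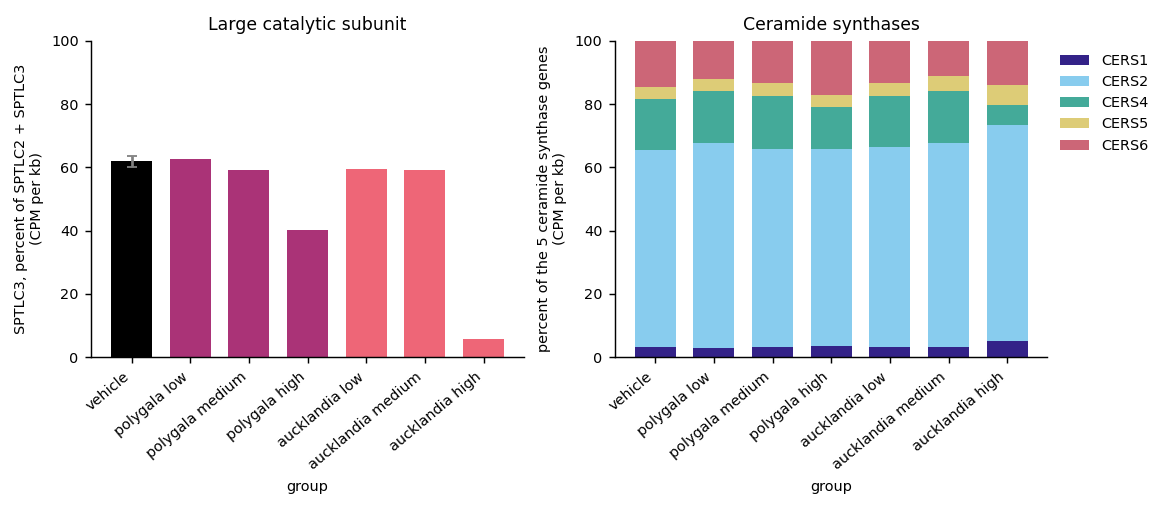
Left, SPTLC3 as a percent of SPTLC2 and SPTLC3 together, in CPM per kb, in vehicle (mean of 3 libraries, SD as bar) and at each dose of polygala and aucklandia (1 library each). Right, the 5 tested ceramide synthase genes as a percent of their sum in the same groups. SPTLC3 makes up 40.1% at the high dose of polygala and 5.62% at that of aucklandia, and CERS4 makes up 6.32% at the high dose of aucklandia.

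KDSR, the reductase of the next step, was higher at the high dose of both extracts with 1 library per dose. It was at 32.1 CPM with polygala, against 20.9 CPM at the low dose (ratio 1.53, 95% interval 1.37 to 1.72), and at 30.0 CPM with aucklandia, against 20.2 CPM at the low dose (ratio 1.48, 1.32 to 1.67). No library of the replicated groups passed 21.5 CPM. Vehicle had the lowest group mean of the 25 groups, at 17.6, 17.2 and 16.8 CPM. KDSR also overlaps KDSR-DT on the other strand, and no source used here says whether reads were counted by strand; the library kit was directional.

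DEGS1, the desaturase that completes ceramide, was at 46.7 CPM with the high dose of aucklandia, against 26.1 CPM at the low dose, with 31.3 CPM at the medium dose. With polygala it was at 37.8 CPM at the high dose, against 25.5 CPM at the low dose. The 54 libraries reached 29.3 CPM at most. With yijin it was at 27.9, 29.3 and 27.8 CPM at the high dose, against 23.7, 24.4 and 25.9 CPM at the low dose. The groups do not overlap and the gene was called (log2 0.20 ± 0.064), but the call was lost without any 1 of the high-dose replicates, without low-dose or medium-dose replicate 1 or 2, with library size alone and without a filter on low counts (log2 0.17 to 0.21). With schisandra the high dose, at 28.6, 29.1 and 27.8 CPM, also lay above the low dose, at 27.1, 23.2 and 25.5 CPM, and DEGS1 was not called (log2 0.18 ± 0.063), though it was without the libraries farthest from their group means (0.23).

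The ceramide synthases are given next, with no test of a difference between them. CERS4, known for long-chain and very-long-chain ceramides, was at 26.5 CPM with the high dose of aucklandia, against 58.8 CPM at the low dose (ratio 0.452, 95% interval 0.410 to 0.497). With polygala it was at 67.3 CPM at the high dose, against 66.4 CPM at the low dose. With yijin it was at 51.7, 50.0 and 47.9 CPM at the high dose, against 56.7, 59.2 and 60.8 CPM at the low dose, without overlap, and it was called (log2 -0.25 ± 0.046). With soshiho it was at 50.9 and 52.3 CPM at the high dose, against 56.3 and 57.0 CPM at the low dose, and it was not called (log2 -0.14 ± 0.056).

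CERS6, which prefers palmitoyl-CoA and so makes the shorter ceramides, was at 155 CPM with the high dose of polygala, against 86.1 CPM at the low dose (ratio 1.80, 95% interval 1.71 to 1.91). With aucklandia it was at 105 CPM at the high dose, against 86.7 CPM at the low dose. The most abundant synthase, CERS2, was at 357 CPM with the high dose of polygala, against 296 CPM at the low dose, and at 329.6 CPM with the high dose of aucklandia, against 267 CPM at the low dose. The low dose of polygala was itself above the 233 to 275 CPM of the 54 libraries. With yijin CERS2 was at 239.7, 238 and 237 CPM at the high dose, against 268, 266 and 262 CPM at the low dose, and it was called (log2 -0.16 ± 0.037), a call lost without a filter on low counts (-0.15). With schisandra CERS2 was called only without low-dose replicate 2 (-0.12) or with library size alone (-0.14). As a share of the 5 tested ceramide synthases per length, CERS6 made up 17.3% at the high dose of polygala, against 12.1% at the low dose, and CERS4 made up 6.32% at the high dose of aucklandia, against 16.0% at the low dose. CERS2 overlaps SETDB1 and CERS6 overlaps CERS6-AS1, each on the other strand.

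Over the 6 replicated extracts, 4 of 54 comparisons of a member between high and low dose were called, 1 higher (DEGS1 with yijin) and 3 lower (CERS4 and CERS2 with yijin, SPTLC3 with soshiho). Over all genes 3.38% of comparisons were called, 1.76% higher and 1.62% lower, and by extract 7.79% with yijin, 5.08% with soshiho, 0.0295% with liriope, 7.33% with schisandra, 0.0177% with longan and 0.0355% with zizyphus. The members' median absolute log2 change was 0.09, 0.10, 0.04, 0.10, 0.03 and 0.03 in that order of extracts, and that of all tested genes 0.10, 0.11, 0.09, 0.11, 0.05 and 0.06. High and low dose did not overlap for 5, 6, 0, 2, 1 and 0 of the 9 members, where 27.7, 50.8, 8.98, 18.7, 9.18 and 8.30% of all genes did not overlap. Between medium and low dose 0 of 54 were called by edgeR's quasi-likelihood test and 0 by DESeq2, 3 had an unadjusted p under 0.05, and 0.0335% of all genes were called, 0.0256% higher and 0.00788% lower (0.00591% with yijin, 0.118% with soshiho, 0% with liriope, 0.0709% with schisandra, 0% with longan and 0.00591% with zizyphus). Because the members were chosen with these results known, nothing is read from their counts.

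**Figure D4:**
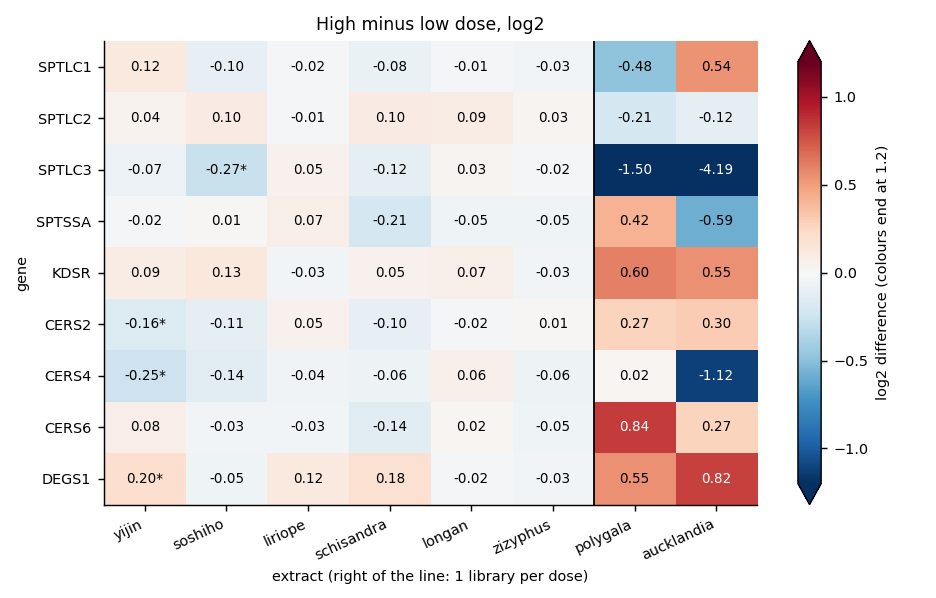
Difference between high and low dose on the log2 scale for each of the 9 genes (rows) in 8 extracts (columns). Left of the line the values are fitted changes of the replicated extracts, with a star where the gene was called. To its right they are differences of log2(CPM + 1) between 1 library each, where SPTLC3 reaches -1.50 with polygala and -4.19 with aucklandia.

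Against vehicle, 11 of 54 comparisons at the high dose were called, 8 higher and 3 lower, where 20.1% of all genes were called, 9.82% higher and 10.3% lower. By extract the share of all genes was 23.4% with yijin, 21.8% with soshiho, 16.8% with liriope, 22.1% with schisandra, 19.6% with longan and 16.9% with zizyphus. At the low dose 2 of 54 were called against vehicle, KDSR with liriope and with schisandra, where 17.0% of all genes were called, 8.04% higher and 8.95% lower. All high doses share the 3 vehicle libraries, so these calls are not separate. KDSR was called higher with yijin (20.4 ± 0.287 CPM), soshiho (20.1 ± 1.35), schisandra (20.5 ± 0.833) and longan (19.6 ± 1.12), against 17.2 ± 0.390 CPM in vehicle. The KDSR calls with yijin and schisandra held whichever library of the vehicle or of the same extract was left out. That with soshiho was lost without vehicle replicate 3 or its own high-dose replicate 2, and that with longan without any 1 of the vehicle libraries or without high-dose replicate 1 or 3. Both were also lost without a filter and on the 2 groups alone, and the longan call with DESeq2. KDSR was at 19.2 ± 0.808 CPM with liriope and 18.6 ± 0.0862 CPM with zizyphus and was not called. Library size alone made it called with both (log2 0.25 with liriope and 0.23 with zizyphus), and with liriope so did leaving out medium-dose replicate 3 (0.16) or the 2 libraries farthest from their group means (0.19). DEGS1 was higher with yijin (log2 0.23 ± 0.064) and schisandra (0.24 ± 0.064), both calls being lost without vehicle replicate 2 and the yijin call also without vehicle replicate 3. SPTLC3 was lower with soshiho (-0.20 ± 0.060) and higher with liriope (0.16 ± 0.052), SPTLC2 was higher with schisandra (0.17 ± 0.065), and CERS4 was lower with yijin (-0.19 ± 0.046) and soshiho (-0.14 ± 0.052). Of these, only the yijin call of CERS4 held whichever vehicle or yijin library was left out. It was lost with library size alone (-0.09) and without a filter on low counts (-0.17). The others were each lost without at least 1 vehicle library and at least 1 high-dose library of the extract. With library size alone the soshiho changes were -0.11 for SPTLC3 and -0.05 for CERS4, neither called, and the SPTLC2 call was lost with other size factors, DESeq2 and the 2 groups alone.

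With 1 library per dose, 1 of the 9 members differed at least 2-fold on the log2(CPM + 1) scale between high and low dose of polygala (SPTLC3), where 14.1% of all genes of at least 5 CPM did. With aucklandia it was 2 of 9 (SPTLC3 and CERS4), where 20.4% of all genes did. Over both extracts this makes 3, which became 4 with library size alone. At the high dose 8 of 9 members lay outside the range of the 54 libraries with polygala and 9 of 9 with aucklandia, where 57.9% and 61.8% of all genes did. At the medium dose it was 2 with polygala and 3 with aucklandia (12.0% and 16.1% of all genes), and at the low dose 2 and 0 (5.06% and 2.61% of all genes). These high-dose libraries stand apart in other respects as well. Their hepatocyte markers summed to 17960.3 CPM at the high dose of polygala, against 45119 CPM at the low dose, and to 21077 CPM at the high dose of aucklandia, against 43115 CPM at the low dose. The aucklandia sum is dominated by APOB, at 7656 CPM at the high dose, against 24611 CPM at the low dose. Other markers differed less there, such as ALB at 4955 against 7027 CPM and SERPINA1 at 4506 against 5491 CPM. FGB was nearly level, at 261 against 264 CPM. The part of these marker differences in the members' levels was not tested. In cultures read as a whole, fewer cells with a transcript and less of it per cell cannot be told apart. With library size alone, without the composition factor, the median log2 difference of all genes between high and low dose was 0.25 with polygala and 0.04 with aucklandia, against 0.02 and -0.01 with it, so a polygala value is read relative to that shift.

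The other genes of the pathway were taken from 8 textbook lists, 79 genes of which 68 were tested. These lists were chosen with earlier results of these data known, as the members were. The calls and p-values of their genes therefore describe these data and are no independent test. Between high and low dose of the replicated extracts 28 of 408 comparisons were called, 9 higher and 19 lower (3.38% of all genes, as above). With liriope, longan and zizyphus 0 of 204 were called by edgeR's quasi-likelihood test and 0 by DESeq2, while 15 had an unadjusted p under 0.05. Adjusted p-values below are edgeR's, over all genes. Between medium and low dose 0 of 408 were called by edgeR and 0 by DESeq2, and 22 had an unadjusted p under 0.05.

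B4GALNT1, which builds the complex gangliosides GM2 and GD2, rose with 3 extracts. It was at 29.7 ± 0.902 CPM at the high dose of soshiho, against 16.8 ± 0.694 CPM at the low dose (n = 2 each, log2 0.81 ± 0.093, adjusted p = 1.4e-08). With yijin it was at 25.3 ± 1.02 CPM at the high dose, against 16.4 ± 0.537 CPM at the low dose (n = 3 each, log2 0.62 ± 0.077, adjusted p = 9.1e-08). With schisandra it was at 24.2 ± 2.92 CPM at the high dose, against 17.0 ± 1.09 CPM at the low dose (n = 3 each, log2 0.52 ± 0.076, adjusted p = 3.8e-06). Fitted on those 2 groups alone, the schisandra calls of B4GALNT1 and of ACSL1 had adjusted p = 0.0545 and 0.0584 in edgeR's quasi-likelihood test. GLA, the lysosomal enzyme that removes terminal galactose from globosides, rose with yijin (log2 0.38 ± 0.073, adjusted p = 2.5e-04) and with soshiho (0.33 ± 0.089, adjusted p = 0.0152). The soshiho call of GLA was lost without high-dose replicate 2 or 3 or low-dose replicate 3.

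Long-chain acyl-CoA is the other substrate of serine palmitoyltransferase and of the ceramide synthases. Of the 15 tested genes of acyl-CoA supply, 4 were called with yijin (1 higher), 4 with soshiho (0 higher) and 3 with schisandra (0 higher). Among all genes 7.79, 5.08 and 7.33% were called with these extracts, in that order and in either direction. ACSL1, a long-chain acyl-CoA synthetase abundant in liver, fell with soshiho (log2 -0.40 ± 0.050, adjusted p = 1.6e-07), with schisandra (-0.30 ± 0.040, adjusted p = 9.0e-07) and with yijin (-0.24 ± 0.041, adjusted p = 3.5e-05). ACSL4, the synthetase that prefers arachidonate, was at 384 ± 19.5 CPM at the high dose of soshiho, against 553 ± 9.99 CPM at the low dose (n = 2 each, log2 -0.53 ± 0.065, adjusted p = 6.9e-08). It was also called lower with yijin. ACSL3 fell with soshiho as well (-0.25 ± 0.057, adjusted p = 0.00375), a call lost without high-dose or low-dose replicate 3.

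Of the 10 tested genes of lysosomal breakdown, 4 were called with yijin (1 higher), 1 with soshiho (higher) and 2 with schisandra (1 higher). The list also holds GBA2, a glucosylceramidase that acts outside the lysosome. The shares of all genes called with these extracts were 7.79, 5.08 and 7.33%, in that order and in either direction. GM2A, the activator that presents ganglioside GM2 to hexosaminidase, fell with yijin to 72.4 ± 1.85 CPM at the high dose, against 90.4 ± 3.57 CPM at the low dose (n = 3 each, log2 -0.32 ± 0.044, adjusted p = 8.3e-07). NEU1, the lysosomal sialidase, fell with yijin (-0.26 ± 0.043, adjusted p = 2.8e-05). SMPD1, acid sphingomyelinase, was the 1 call among the 5 tested sphingomyelinases and fell with yijin (-0.27 ± 0.071, adjusted p = 0.00943), a call lost without high-dose or low-dose replicate 2 and without a filter on low counts (adjusted p = 0.0624).

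Of the 7 other genes of de novo synthesis and its regulators, 2 were called, both with schisandra and both higher. That extract had 7.33% of all genes called, in either direction. ORMDL3, a brake on serine palmitoyltransferase, had a log2 change of 0.24 ± 0.056 (adjusted p = 0.00328), and 0.14 with an adjusted p of 0.129 without low-dose replicate 1. CERS1, the synthase of stearoyl ceramides, had a log2 change of 0.30 ± 0.093 (adjusted p = 0.0352), and 0.22 with an adjusted p of 0.319 without that library. Its call was also lost without high-dose replicate 2 or 3 or low-dose replicate 3, with library size alone, without a filter and on the 2 groups alone. The library is the one in which SPTSSA read 149 CPM, and over all genes it differed most from its group mean (SD of log2 differences 0.173). The fatty acid elongases ELOVL5 and ELOVL6, the prosaposin gene PSAP and the serine synthesis gene PSAT1 lost their schisandra calls without it as well. Of these, ELOVL6 stood at an adjusted p of 0.0501. On the 2 groups alone ORMDL3 and these 4 genes were not called either (adjusted p 0.288 to 0.475), and PSAP lost its call under most other alternatives too.

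In the extracts with 1 library per dose, the pathway genes named next were chosen after their values were seen. With polygala 16 of 58 genes of at least 5 CPM differed at least 2-fold between high and low dose, 4 higher and 12 lower, and with aucklandia 15 of 57 did, 9 higher and 6 lower. The shares among all genes were 14.1% and 20.4%. SGMS2, the sphingomyelin synthase of the plasma membrane, was at 11.7 CPM with the high dose of polygala, against 4.20 CPM at the low dose, and at 25.3 CPM with the high dose of aucklandia, against 4.20 CPM at the low dose. UGCG, which makes glucosylceramide, was at 29.2 CPM with the high dose of polygala, against 13.1 CPM at the low dose, and at 43.5 CPM with the high dose of aucklandia, against 11.2 CPM at the low dose. All 4 high-dose values lie above every one of the 54 libraries, where SGMS2 reached 5.80 CPM and UGCG 14.1 CPM.

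The genes that supply serine were low at both high doses. Of the 5 genes, 4 were at least 2-fold lower with each extract, with a median log2(CPM + 1) difference of -1.47 with polygala and -1.39 with aucklandia. Among all genes of at least 5 CPM, 14.1% with polygala and 20.4% with aucklandia differed at least 2-fold in either direction. PHGDH, the first enzyme of serine synthesis, was at 18.7 CPM with the high dose of polygala, against 137 CPM at the low dose, and at 70.0 CPM with the high dose of aucklandia, against 149.6 CPM at the low dose. SHMT1, which interconverts serine and glycine, was at 12.0 CPM with the high dose of aucklandia, against 65.5 CPM at the low dose, and at 26.1 CPM with the high dose of polygala, against 67.0 CPM at the low dose.

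The extracts parted in the list of lysosomal breakdown, where polygala had 6 of 10 genes at least 2-fold lower and 0 higher (median -1.16) and aucklandia 0 lower and 1 higher (median 0.20). The 10 include GBA2, which acts outside the lysosome. It was at 74.7 CPM with the high dose of polygala, against 54.6 CPM at the low dose. With aucklandia GBA2 was at 56.5 CPM at the high dose, against 56.3 CPM at the low dose. The shares of all genes that differed at least 2-fold, in either direction, were 14.1% with polygala and 20.4% with aucklandia. PSAP, the precursor of the saposin activators, was at 157 CPM with the high dose of polygala, against 383 CPM at the low dose, and at 812 CPM with the high dose of aucklandia, against 412 CPM at the low dose. GLB1, the lysosomal beta-galactosidase, was at 28.9 CPM with the high dose of polygala, against 83.9 CPM at the low dose, and at 86.6 CPM with the high dose of aucklandia, against 77.1 CPM at the low dose. ACSL1 and B4GALNT1 were higher with aucklandia, at 118 and 65.5 CPM at the high dose, against 49.9 and 20.5 CPM at the low dose. With polygala they were at 35.2 and 22.8 CPM at the high dose, against 56.5 and 20.1 CPM at the low dose. ACSL4 was at 250.1 CPM with the high dose of polygala, against 594 CPM at the low dose. With aucklandia ACSL4 was at 242 CPM at the high dose, against 548 CPM at the low dose. CERK, ceramide kinase, was at 26.2 CPM with the high dose of aucklandia, against 71.9 CPM at the low dose.

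**Figure D5:**
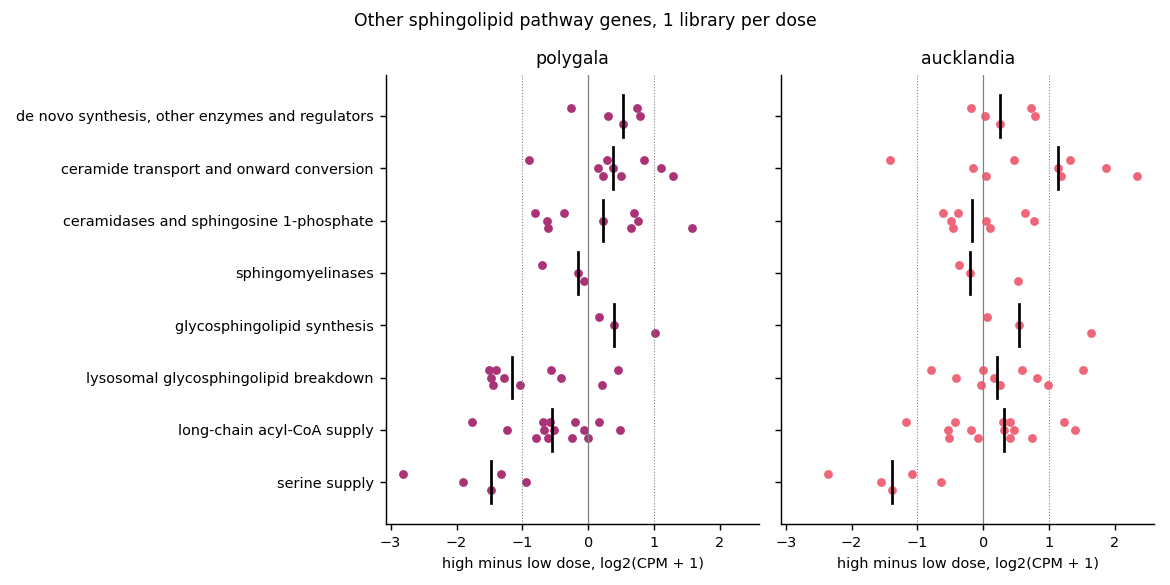
Difference of log2(CPM + 1) between high and low dose for the other sphingolipid pathway genes of at least 5 CPM, by list (rows), with polygala (left) and aucklandia (right). Each point is 1 gene from 1 library per dose, black bars are list medians and dotted lines mark 2-fold. All 5 genes of serine supply lie left of 0 in both panels, and the median of lysosomal breakdown is -1.16 with polygala and 0.20 with aucklandia.

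The genes whose level followed a member most closely over the 25 group means were found for the 3 members with the largest change between high and low dose of a replicated extract, which for SPTSSA rests on the schisandra library at 149 CPM. For SPTLC3 they were GYG2, HMGA2, UNG, CGNL1 and IVD, with Pearson's r of 0.992 to 0.996 on log2(CPM + 1), as a description. Without the high doses of polygala and aucklandia, r was 0.659 to 0.846 over 23 groups, so the likeness rests largely on those libraries. GYG2, glycogenin, was at 3.60 CPM with the high dose of aucklandia, against 40.3 CPM at the low dose, and HMGA2, a chromatin protein of embryonic cells, at 78.0 CPM, against 356 CPM. For CERS4 they were NAT8L, PASK, SLC43A1, APH1A and FOXA1, with r of 0.956 to 0.966 over 25 groups and 0.654 to 0.734 over 23. FOXA1, a liver transcription factor, was at 43.9 CPM with the high dose of aucklandia, against 144 CPM at the low dose. For SPTSSA they were JAGN1, RFC3, TMEM168, FAM136A and PET117, with r of 0.947 to 0.956 over 25 groups and 0.481 to 0.667 over 23.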

How the data were processed

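Per the labels' protocols, RNA went into a directional MGIEasy kit and was read as paired ends on an MGIseq instrument. The authors deposited expected counts per gene; per the submitters' processing notes these came from FastQC 0.11.9, Trim Galore 0.6.5, STAR 2.7.3a and RSEM 1.3.3 on hg38. A fractional part was present in 10.4% of the values, which were rounded to whole counts. Symbols came from a name table and positions from GENCODE 29. Sample labels give 0.1% DMSO and the series text 2%. Replicate 1 of soshiho and further replicates of polygala and aucklandia were not analysed here.

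The 54 libraries of 19 groups entered 1 model of group means (edgeR 4.0.16 under R 4.3.3, quasi-likelihood test, trimmed mean of M values, filter by group, 16924 genes). Benjamini-Hochberg adjustment ran over all genes of a comparison, with a threshold of 0.05. Alternatives were DESeq2 1.42.0, other scalings, no filter, a replicate block, only the 2 groups compared, another pseudocount and libraries left out. The script was tested on simulated data. Replicates differed beyond sampling noise in each of 51 pairs (chi-square over its degrees of freedom 2.70 to 63.9), and 0 columns were identical.

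Members and lists were chosen with earlier results of these data known. Named pathway genes are, per replicated extract and direction, at most 4 called in high vs low dose by size, of at least 5 CPM. Likeness to a member is Pearson's r of group means, 5 genes per member. The text names part of these. Levels and ratios of polygala and aucklandia are in CPM without a pseudocount, and the exact intervals at 95% cover counting error only. Their log2 differences and the 2-fold rule use log2(CPM + 1), with a pseudocount of 1 CPM, so they can differ from the plain ratios.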

Additional observations from a re-analysis of the deposited data

Results flagged for a closer look

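Between high and low dose, CERS4 differed in opposite directions in 2 pairs of extracts, judged by libraries that do not overlap. With longan every high-dose library lay above every low-dose library (61.4, 59.4 and 61.3 CPM at the high dose, against 58.2, 57.5 and 58.7 CPM at the low dose, log2 0.06). With yijin every high-dose library lay below every low-dose library (log2 -0.25), and likewise with soshiho (log2 -0.14). High and low dose did not overlap for 9.18% of all genes with longan, 27.7% with yijin and 50.8% with soshiho. The medium dose did not always lie between them. With soshiho it was at 59.2 and 59.1 CPM, above the low dose. With longan it was at 60.7 ± 1.7 CPM (SD, n = 3), level with the high dose at 60.7 ± 1.15 CPM. Neither difference between extracts was tested, CERS4 was called with yijin alone, and the longan change is about as large as its SE of 0.045.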

How the results depend on the processing

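No called value changed sign under any alternative run. Between high and low dose, single named genes kept direction and call in 845 combinations of gene and alternative, changed sign without being called in 33 (SPTSSA with schisandra to 0.14), lost the call in 61 and gained it in 6. Leaving out medium-dose libraries is not in these counts and ended calls of DEGS1 with yijin and PSAP with schisandra. Between high and low dose 1318 genes were called with yijin, 860 with soshiho, 5 with liriope, 1240 with schisandra, 3 with longan and 6 with zizyphus. Fitting only the 2 groups compared gave 1707 with soshiho, 0 with liriope, 132 with schisandra and 0 with zizyphus (edgeR; 444 genes with liriope and 445 with zizyphus had an unadjusted p under 0.05). Without a filter on low counts it was 207 with liriope, 63 with longan and 79 with zizyphus, and with DESeq2 14, 6 and 13. Without the 2 libraries farthest from their group means (schisandra low-dose replicate 1 and liriope high-dose replicate 2) it was 731 with schisandra and 15 with zizyphus. The 11 calls of members against vehicle became 20 with library size alone, 4 without a filter and 6 with only the 2 groups, the 104 of pathway genes became 66 without a filter, and the 0 of members between medium and low dose became 2 without a filter. With library size alone, the median log2 change of all genes at the high dose against vehicle was 0.07 to 0.09 by extract. With the main scaling it was 0 to 0.01. Calls against vehicle with library size alone are read relative to that shift. The cause of the changed counts was not tested.

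Leaving out each library in turn gave 836 to 1039 genes with yijin, 467 to 501 with soshiho (where 1 library is then assumed to vary like the other groups), 2 to 6 with liriope, 615 (without low-dose replicate 1) to 1826 with schisandra, 0 to 2 with longan and 3 to 7 with zizyphus. Members called ranged over 2 to 6 between high and low dose (2 without soshiho high-dose replicate 2) and over 5 to 11 against vehicle (5 without vehicle replicate 2 or 3, and 7 without soshiho high-dose replicate 2). Pathway genes ranged over 24 to 34 between high and low dose and 78 to 107 against vehicle. Between medium and low dose it was 0 to 0 members and 0 to 1 pathway genes. The lowest counts came without yijin high-dose replicate 2 (836), without liriope low-dose replicate 2 or 3 (2 each), without longan high-dose replicate 1 or 2 or low-dose replicate 2 or 3 (0 each by edgeR, with 370 to 419 genes at an unadjusted p under 0.05) and without zizyphus high-dose replicate 2 or 3 (3 each). Every soshiho high-dose or low-dose library lowered the soshiho count by over 1.5 times, and longan had 1 gene without high-dose replicate 3. The 1 pathway gene between medium and low dose came without schisandra low-dose replicate 2. Single calls of members were followed only for libraries of the vehicle and of the same extract. All groups share 1 estimate of spread, so leaving out a library of another extract can also end a call.

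The replicate numbers were not taken to pair the libraries, since the labels state no shared source for them. Sample codes do repeat the replicate number across the doses and extracts of a set, without saying what it stands for. Of 51 same-numbered pairs, 14 had deviations that correlate over 0.1. As a hint of pairing from the data, 36 of 51 correlated best with their own number, and the median r was 0.0696 for same-numbered and -0.0303 for other pairs. How many would do so without pairing was not computed, so pairing stays possible. With the replicate number as a block, 8 genes were called with liriope and PSAP with schisandra had an adjusted p of 0.0512 in edgeR.

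Single libraries of polygala and aucklandia allow no test. Expected counts share out reads that fit several genes, and depth limits low genes such as SPTLC3 at the high dose of aucklandia.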
